A study of Homo sapiens with 12 samples.

Results

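Focal adhesions are the protein plaques that tie integrins, the receptors for extracellular matrix, to actin filaments inside the cell. The 10 genes described here encode adaptors and kinases of these plaques: TLN1 (talin 1), VCL (vinculin), ACTN1 (alpha-actinin 1), FLNA (filamin A), TNS3 (tensin 3), PXN (paxillin), ZYX (zyxin), PTK2 (focal adhesion kinase), ILK (integrin-linked kinase) and PARVA (alpha-parvin). They were chosen by symbol, with earlier results of these data known, and all 10 were found among the 13853 genes of the deposited count table. The cells were H1299, a human cell line derived from lung cancer of the non-small cell type. One group carried a control vector (shNT, 3 libraries) and the other a short hairpin against GAS41 (shGAS41, 3 libraries), and per the labels both had been transduced with virus and kept under drug selection for 3-4 days. GAS41, encoded by YEATS4, is a chromatin reader that binds acetylated histone H3 and belongs to complexes that place the histone variant H2A.Z. The 6 chromatin immunoprecipitation samples of the series were not analysed here.

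As background, talin binds the tail of the integrin beta subunit and recruits vinculin, which strengthens the bond to actin, while alpha-actinin and filamin cross-link the actin filaments. Focal adhesion kinase is activated at the plaque and signals together with Src through paxillin. The pseudokinase ILK forms a complex with a PINCH protein (LIMS1 or LIMS2) and a parvin, and zyxin gathers VASP-family proteins where actin is under tension. In cultured epithelial tumour cells these genes are known for their part in spreading, migration and the response to matrix stiffness.

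The libraries held between 58629147 and 72747010 counts. The targeted transcript YEATS4 was read 3245, 2923 and 2820 times with the control vector and 108, 127 and 116 times with the hairpin, so the counts followed the labels. KRT8, KRT18 and VIM, which mark epithelial and mesenchymal tumour cells, were expressed. The lung differentiation markers NKX2-1, NAPSA, SFTPB and SFTPC, the epithelial markers EPCAM, CDH1 and KRT19, and all listed leukocyte, endothelial and muscle markers were not among the genes of the table. The summed level of the 3 measured epithelial keratin genes (KRT8, KRT18 and KRT7) was between 857 and 877 CPM in control and between 601 and 618 CPM in knockdown libraries. Within it KRT8 and KRT18 fell, while KRT7 rose to 4.42 CPM (edgeR log2 fold change 1.90, adjusted p = 0.000293). The authors' deposited log2 fold changes had the other sign for KRT8 (0.459, deposited adjusted p = 0.487) and KRT18 (0.146, 0.939). For KRT7 the deposited value had the same sign (1.835). The summed level of 4 mesenchymal markers went from between 2736 and 2833 CPM to between 3240.0 and 3249.7 CPM, most of it VIM. In that list VIM, CDH2 and FN1 rose and ZEB1 fell (−0.23, adjusted p = 0.00225). Of 6 fibroblast markers only COL1A1 was listed, and it rose from 0.817 to 1.69 CPM (log2 fold change 1.04, adjusted p = 0.00192). The part of these shifts in the results below was not tested. CPM stands for read counts scaled to a common library size, here with edgeR's TMM factors. In bulk RNA, fewer cells of a type and less RNA per cell cannot be told apart. Nothing in the labels tells whether replicate libraries were separate cultures, and p-values then reflect only a spread between libraries that could be technical.

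After GAS41 knockdown 7 of the 10 transcripts rose and none of the 10 fell at an adjusted p under 0.05 (edgeR, quasi-likelihood, Benjamini-Hochberg over all 13846 tested genes). PTK2 had the largest change, a log2 fold change of 0.81, and the other 6 rises lay between 0.15 and 0.39. PXN, ZYX and TNS3 did not pass. With replicate number as a block in the fit, ZYX passed as a fall (−0.19, adjusted p = 0.000400) and TNS3 as a rise (0.25, adjusted p = 0.000981). Changes were widespread in these libraries: 68.1% of all tested genes were called, 33.6% as rises and 34.5% as falls. The median log2 fold change was 0.22 over the 10 members and −0.01 over all tested genes. The share of members called in either direction is thus close to that of all genes, while 7 rises and no fall stand beside a nearly even split of all genes. The members were chosen with earlier results of these data known, so this contrast is a description with no test. The 2 groups were fully separate for 8 members, 7 higher and 1 (ZYX) lower, against 72.3% of all tested genes, 35.6% higher and 36.7% lower. Among the 2374 tested genes with a mean of at least 100 CPM, as 7 members have, 75.5% were called. None of the 10 passed both the test and a log2 fold change of 1 in size, which 10.1% of all genes did. Together the 10 transcripts took 4319 ± 86.4 CPM with the control vector and 5057 ± 126 CPM with the hairpin (mean ± SD, n = 3 each).

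**Figure D1:**
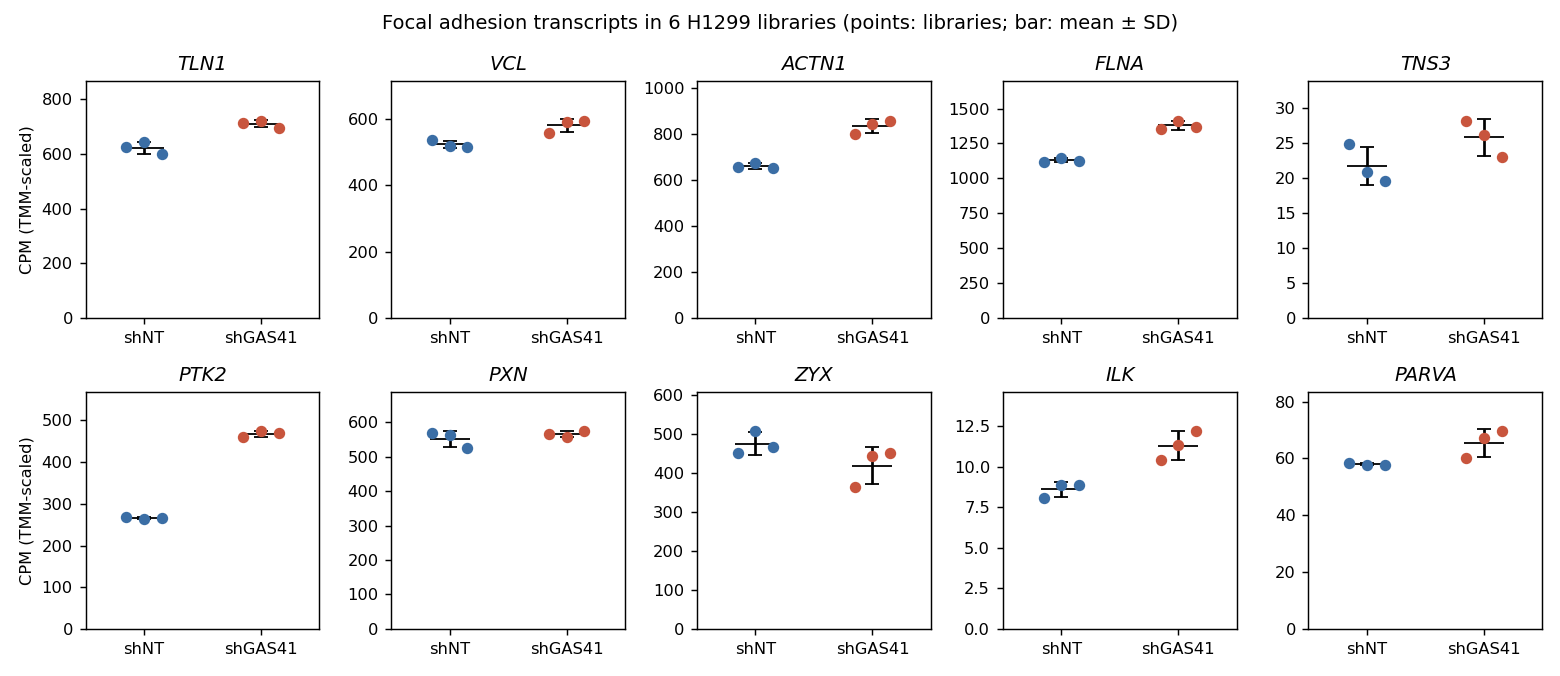
CPM (TMM-scaled) of each of the 10 transcripts in the 3 shNT (blue) and 3 shGAS41 (red) libraries, with points for libraries and bars for mean ± SD. Relative to its level, PTK2 has the groups widest apart (266 against 467 CPM, a rise of 75.7%), and the groups overlap for PXN and TNS3.

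Promoter sequences were searched for motifs of actin-linked transcription factors, and 1 stretch is shown for each of the 4 members with a match. The RefSeq promoter table (GRCh38.p14), with 300 bases around each transcription start, had entries for 8 members in 14 windows. PTK2 and PARVA had none. A CArG box, the site of serum response factor (SRF), was searched on both strands and found in windows of FLNA and ACTN1, against 1.6% of all 27305 genes in the table. The TEAD core GGAATG was found on either strand for VCL, PXN and ACTN1, against 16.7% of all genes. The AP-1 site TGANTCA was found for none of the 8, against 9.37% of all genes. A gene with more windows has more chances to match. Of all 35116 windows 1.29% held a CArG box, 14% the TEAD core and 7.71% the AP-1 site. The stretches below run 5′ to 3′ on the gene's strand and end before the transcription start, with the matched letters in capitals. For ACTN1 and PXN only the match and 10 flanking bases on each side are given, because other starts of these genes lie upstream. ACTN1 also has a TEAD core, 154 to 149 bases before the same start.
FLNA (chrX:154374664-154374783, minus strand, CArG box 94 to 85 bases before the start): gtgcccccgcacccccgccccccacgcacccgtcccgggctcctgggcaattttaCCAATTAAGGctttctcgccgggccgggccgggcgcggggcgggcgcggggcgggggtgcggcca
ACTN1 (chr14:68977718-68977747, minus strand, CArG box 171 to 162 bases before the start): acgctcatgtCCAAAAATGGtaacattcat
VCL (chr10:73997890-73998005, plus strand, TEAD core 171 to 166 bases before the start): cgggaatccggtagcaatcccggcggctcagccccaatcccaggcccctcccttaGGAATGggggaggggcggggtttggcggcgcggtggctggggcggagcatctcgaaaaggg
PXN (chr12:120250215-120250240, minus strand, TEAD core on the opposite strand 67 to 62 bases before the start): tttccaggaaCATTCCtcttccttag
These are matches of letters only, chosen after the expression values were known, and the table does not say which start H1299 cells use. Of the 4 genes FLNA, ACTN1 and VCL rose and PXN was not called.

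Among the linkers from integrin to actin, TLN1 (ENSG00000137076) stood at 624, 644 and 599.6 CPM in the control libraries and at 713, 722 and 696 CPM in the knockdown libraries. All 3 knockdown values lay above all 3 control values, and the log2 fold change was 0.19 ± 0.04 (SE; adjusted p = 0.00195). VCL (ENSG00000035403), whose product binds talin under load, stood at 536, 518 and 516 CPM in control and at 559, 590.2 and 595 CPM in knockdown libraries. Its groups did not overlap either, and it rose by 11.1% (log2 fold change 0.15 ± 0.04, adjusted p = 0.00776). This was the smallest rise of the 7, from 523 ± 11.0 to 581 ± 19.9 CPM. AP3M1, which overlaps VCL in the annotation, fell from 107 ± 3.85 to 82.6 ± 0.722 CPM (log2 fold change −0.38, adjusted p = 3.49e-05).

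Of the actin cross-linkers, ACTN1 (ENSG00000072110) had 657, 672 and 651 CPM in control and 801, 841 and 857 CPM in knockdown libraries. Its groups lay well apart, with means of 659.8 ± 10.9 and 833 ± 29.0 CPM (SD, n = 3), and it rose by 26.2% (log2 fold change 0.34 ± 0.04, SE; adjusted p = 3.42e-05). FLNA (ENSG00000196924) had 1119.9, 1149.7 and 1123 CPM in control and 1354, 1414 and 1369 CPM in knockdown libraries. It rose by 21.9% with no overlap between the groups (log2 fold change 0.29 ± 0.04, adjusted p = 5.33e-05).

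TNS3 (ENSG00000136205), a tensin that binds both integrin tails and actin, was at 24.8, 20.9 and 19.6 CPM in control and at 28.2, 26.2 and 23.1 CPM in knockdown libraries. Replicate 1 was the highest library of either group, and the lowest knockdown value fell below the highest control value. Its log2 fold change of 0.25 ± 0.10 (SE) missed the threshold in edgeR's test (adjusted p = 0.0505, 95% interval 0.02 to 0.47). It passed with DESeq2 (adjusted p = 0.0246), with median-ratio size factors (0.0447) and with a filter of 1 CPM (0.0450). It passed also without shNT replicate 1 (0.00611) or shGAS41 replicate 3 (0.0190), within a range of 0.000981 to 0.170 over 12 alternatives.

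The kinase gene PTK2 (ENSG00000169398) stood apart from the other 9 in size. Its level was 269, 264 and 265 CPM in the control libraries and 459.6, 474 and 469 CPM in the knockdown libraries. The spread within a group was narrow, at a coefficient of variation of 0.911% in control and 1.56% in knockdown cells, against a rise of 75.7%. The log2 fold change was 0.81 ± 0.04 (SE; edgeR adjusted p = 6.94e-08), and it kept between 0.79 and 0.83 under all 12 alternatives. Of all tested genes 9.33% had a higher log2 fold change. Within each library the log2 ratio of PTK2 counts to those of each other member was higher in all 3 knockdown than in all 3 control libraries, for 9 of 9 members. The difference of means ran from 0.42 against ILK to 1.00 against ZYX. PTK2 was singled out after its values were seen, so these ratios are a description with no test.

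Paxillin, the scaffold on which focal adhesion kinase and vinculin meet, did not pass the test. PXN (ENSG00000089159) was at 567, 564 and 525 CPM in control and at 565, 556 and 574 CPM in knockdown libraries. The groups overlapped, and the log2 fold change of 0.03 had a 95% interval of −0.06 to 0.13 (edgeR adjusted p = 0.518). PXN-AS1, an antisense transcript that overlaps PXN, fell from 10.2 ± 0.216 to 5.77 ± 0.199 CPM. The sources used here do not state whether counting used strand. Reads of this pair, of VCL with AP3M1 and of ILK with TAF10 may therefore not be told apart.

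ZYX (ENSG00000159840), the member with the lowest log2 fold change, was at 451.3, 507 and 467 CPM in control and at 364, 442 and 450.6 CPM in knockdown libraries. The highest knockdown value lay just under the lowest control value, and replicate 1 was the lowest library of either group. The log2 fold change of −0.18 ± 0.08 (SE; 95% interval −0.360 to −0.00469, not adjusted for the number of genes) missed the threshold (edgeR adjusted p = 0.0644). It passed with DESeq2 (adjusted p = 0.0461), when scaled by library size alone (0.0327) and without shGAS41 replicate 3 (0.0318). Without shGAS41 replicate 1 the log2 fold change was −0.09 (adjusted p = 0.134), and over 12 alternatives the adjusted p ran from 0.000400 to 0.244.

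In the ILK-PINCH-parvin complex both members rose. ILK (ENSG00000166333) went from 8.06, 8.85 and 8.89 CPM in control to 10.4, 11.3 and 12.2 CPM in knockdown libraries. Its groups did not overlap, and the log2 fold change was 0.39 ± 0.09 (SE; edgeR adjusted p = 0.00262). ILK overlaps TAF10 in the annotation, and TAF10 had a log2 fold change of 0.11 (adjusted p = 0.197). PARVA (ENSG00000197702), which links ILK to actin, was at 58.3, 57.8 and 57.7 CPM in control and at 60.0, 67.1 and 69.6 CPM in knockdown libraries. The control values were tight and the knockdown values were not, with SDs of 0.331 and 4.96 CPM. The log2 fold change of 0.18 ± 0.06 passed (adjusted p = 0.0216), but not without shNT replicate 2 (0.0507), shGAS41 replicate 2 (0.0815) or shGAS41 replicate 3 (0.0958), within a range of 0.00107 to 0.0958. The partners RSU1 (0.50) and PARVB (0.45) rose, and the adaptor gene LIMS1 (0.13, adjusted p = 0.0661) did not pass.

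**Figure D2:**
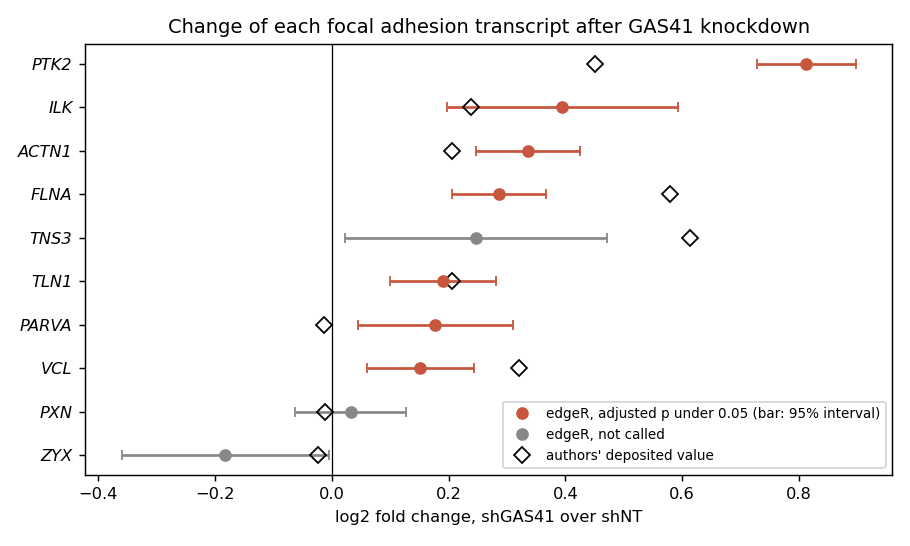
Log2 fold change of shGAS41 over shNT for each transcript. Circles are the edgeR refit of the counts with 95% intervals, red where the adjusted p was under 0.05 and grey where not. Open diamonds are the authors' deposited edgeR values. PTK2 lies furthest right at 0.81 and ZYX furthest left at −0.18, and the authors' deposited values lie outside the intervals for 6 genes (VCL, PTK2, PARVA, ACTN1, FLNA and TNS3).

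The authors' deposited results are named as edgeR, but the sources used here do not give their model or settings. The deposited table called 2 of the 10 genes at its adjusted p under 0.05, where it called 33.2% of all listed genes. These were FLNA, with a log2 fold change of 0.58 (adjusted p = 0.00249), and TNS3, with 0.61 (adjusted p = 0.0144). For PTK2 the authors' deposited table gave 0.45 (adjusted p = 0.176), and for ACTN1 0.205 (adjusted p = 0.541). Of the 10 members, its sign differed from the refit of the counts for PXN and PARVA, both at −0.01 there. It also called fewer genes than the refit in each related list described below. For FAK, Src and paxillin signalling it called 7 against 22, and for integrin activators and actin linkers 10 against 17. The cause of these differences was not tested.

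Most members belong to small protein families, and the counts of a member and a relative were compared as a log2 ratio within each library, which library depth and scaling do not affect. Of 15 pairs compared 13 were measured, and the tensins TNS1 and TNS4 were not listed. In 12 of the 13 pairs the ratio did not overlap between the groups, though by little for ILK to RSU1 (lowest control −2.748, highest knockdown −2.755). Each of these 12 had an exact two-sided permutation p of 0.1, the smallest that 3 against 3 libraries allow (0.108 adjusted over the 13 pairs), so none could pass 0.05. The values are therefore given with their spread. Single genes were fully separate in 72.3% of all tested genes, and the share for ratios of other gene pairs is not given here. The count of separate pairs is thus not read as a result about these families.

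FLNA was compared with FLNC, the filamin best known from muscle. The log2 ratio of FLNA to FLNC was 0.55, 0.56 and 0.51 in control and 1.32, 1.43 and 1.42 in knockdown libraries, a difference of 0.85. FLNC fell from 778 ± 11.7 to 527 ± 15.9 CPM (edgeR log2 fold change −0.56 with an SE of 0.04, adjusted p = 8.04e-07), whereas FLNA rose.

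The zyxin family also divided. The log2 ratio of ZYX to TRIP6 went from 2.60, 2.73 and 2.69 to 3.23, 3.48 and 3.47, while that of ZYX to LPP went from 2.37, 2.56 and 2.24 to 1.50, 1.65 and 1.84. TRIP6, a LIM protein that binds zyxin partners, fell from 74.5 ± 1.85 to 39.7 ± 0.960 CPM (edgeR log2 fold change −0.91, adjusted p = 1.52e-07), and LPP rose by 0.53. Among talins, the ratio of TLN1 to TLN2 went from 5.02, 5.26 and 5.02 to 4.34, 4.44 and 4.44, with TLN2 up from 18.1 ± 1.25 to 33.5 ± 1.60 CPM (log2 fold change 0.88). The ratio of ACTN1 to ACTN4 went from −0.98, −0.90 and −0.86 to −0.69, −0.54 and −0.48. ACTN4, the other non-muscle alpha-actinin, had a log2 fold change of −0.01 with an SE of 0.05 (adjusted p = 0.900).

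Other pairs differed by less or rested on few counts. The log2 ratio of PARVA to PARVB differed between knockdown and control by −0.27, and that of TNS3 to TNS2 by −0.41. For VCL against CTNNA1 (alpha-catenin), a related protein of cell-cell junctions, the difference was −0.22. For PTK2 against PTK2B, the related kinase PYK2, it was 0.73, but PTK2B was at only 1.73 CPM with the control vector and 1.84 CPM with the hairpin. For PXN against TGFB1I1 (Hic-5), which fell from 4.90 to 2.89 CPM (edgeR adjusted p = 0.00747), it was 0.80, and the ratio of PXN to LPXN (leupaxin) overlapped between groups (difference −0.19, exact permutation p = 0.3). In the ILK complex the ratio of ILK to LIMS1 was higher by 0.26 and that of ILK to RSU1 lower, with a difference of −0.10.

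**Figure D3:**
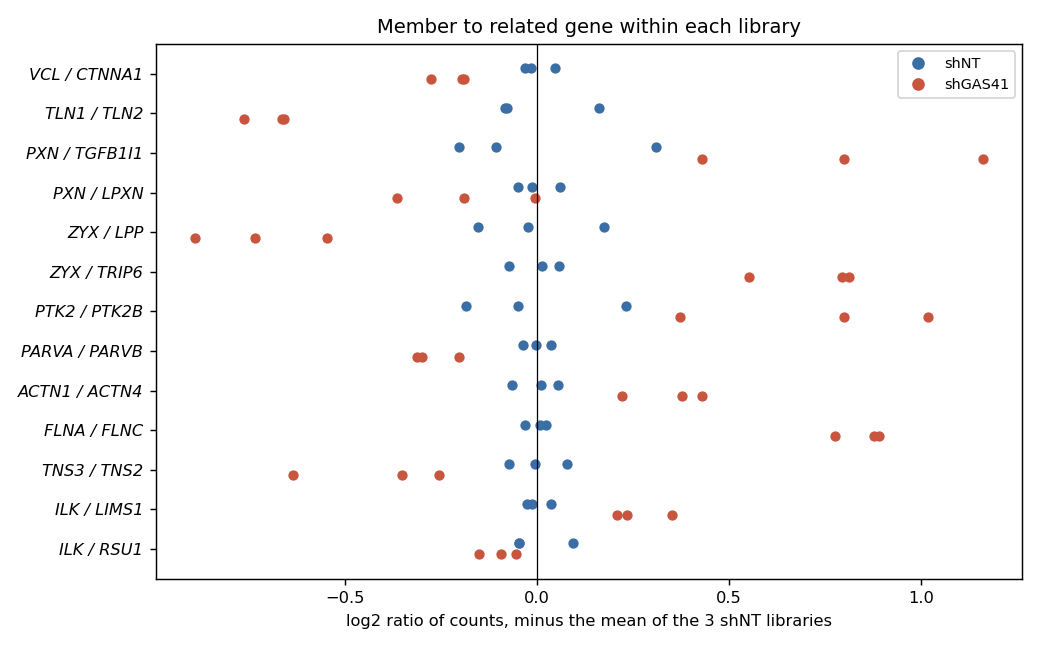
Log2 ratio of the counts of a focal adhesion gene to those of a related or partner gene within each library, minus the mean of the 3 shNT libraries (blue, shNT; red, shGAS41; points are libraries). The groups separate in 12 of 13 pairs, to the left for ZYX/LPP (−0.72) and to the right for FLNA/FLNC (0.85), only barely for ILK/RSU1, and overlap for PXN/LPXN.

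Around these 10 genes, other integrin activators and actin linkers changed in both directions. Of 25 listed genes 23 were measured, 9 rose and 8 fell, and the list's median log2 fold change was −0.01. The rises of smallest p were those of TLN2 (0.88) and TES (0.60), which encodes the zyxin-binding protein testin, and the falls of smallest p those of TRIP6 and FLNC. In the list of FAK, Src and paxillin signalling 17 of 30 measured genes rose while 5 fell (median 0.20). Of all tested genes 68.1% were called, 33.6% as rises and 34.5% as falls, and these list counts are a description with no test. ELMO2 (0.70), a part of the exchange factor for Rac, and RASA1 (0.64), a GTPase-activating protein for Ras, rose, while the paxillin-binding GIT2 (−0.50) and the adaptor CRKL (−0.34) fell.

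Actin and myosin II genes had 10 rises and 3 falls among 21 (median log2 fold change 0.16). The calponin gene CNN2 rose by 0.82 and the myosin heavy chain gene MYH14 by 1.24, whereas MYH10 (−0.67), another non-muscle myosin heavy chain, and CNN3 (−0.34) fell. Of 20 measured genes in the list of SRF and its known targets, which overlaps the actin list, 9 rose and 5 fell (median 0.17). Beside both lists stand 33.6% rises and 34.5% falls among all tested genes. SRF itself was at 137, 147 and 139 CPM in control and at 67.3, 72.1 and 74.4 CPM in knockdown libraries, without overlap (log2 fold change −0.99 ± 0.05, SE; edgeR adjusted p = 1.56e-07). The gene of its cofactor MRTF-A, listed as MKL1, rose by 0.67, and FHL2 fell by 0.37. FLNA and ACTN1, whose promoter windows hold the CArG boxes printed above, rose. A link between these boxes, the level of SRF and the rises was not tested.

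The integrin genes, whose products the 10 adaptors and kinases serve, had a higher median. Of 16 measured integrin genes 11 rose and 1 fell (median log2 fold change 0.77), beside 33.6% rises and 34.5% falls among all tested genes. The rises of smallest p were those of ITGB3 (3.31, from 1.02 to 10.1 CPM) and ITGA5, from 64.3 to 276 CPM, and the member that fell was ITGA4 (−0.37). Some integrin genes were near the floor. ITGB6, counted as a rise, went from 0.446 to 0.817 CPM, and ITGB2, not called, from 0.257 to 0.463 CPM. The difference between the lists was not tested.

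**Figure D4:**
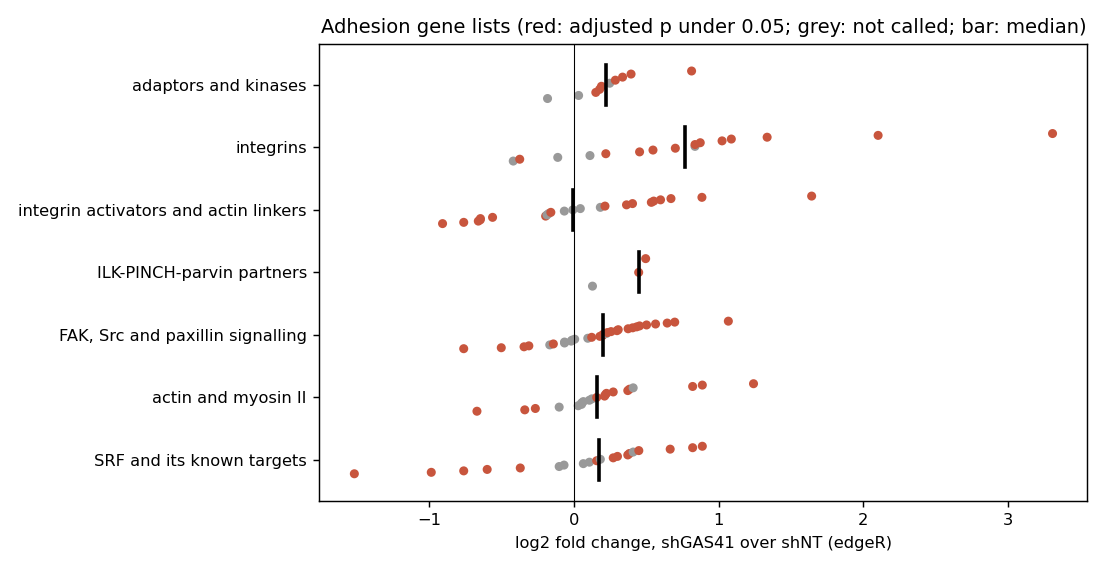
Log2 fold change of shGAS41 over shNT (edgeR) for each measured gene of the adaptors and kinases and of 6 related lists, red where the adjusted p was under 0.05 and grey where not, with a bar at the list median. The adaptors and kinases lie between −0.18 and 0.81 around a median of 0.22, and the integrins reach 3.31 (ITGB3, at 1.02 CPM in control).

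The members also differed in profile. Each gene's log2 CPM was centred on its mean over the 6 libraries, and the median of the 10 members gave a common profile. TLN1, FLNA and VCL lay closest to it, at root mean square distances of 0.03, 0.04 and 0.04 (log2 units), and PTK2 (0.29) and ZYX (0.23) lay farthest. Outside the members, the genes nearest to that profile were CHID1 (0.01), SFXN1 (0.02), VIM (0.02), PRDX3 (0.02) and RPS3 (0.02). This is a description over 6 libraries in 2 groups.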

How the data were processed

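Read counts per Ensembl gene came from 6 RNA-seq libraries of H1299 cells, as deposited by the authors. TruSeq RNA libraries were sequenced on a HiSeq, per the labels' protocols. HTSeq, TopHat2 2.0.10, Bowtie2 2.1.0, CASAVA 1.8.2, MACS 1.4.2 and hg19 appear, with no roles, in the submitters' processing notes. Annotation release, strand use and gene selection are not stated there. For each gene the authors deposited their own log2 fold change and p-value, raw and adjusted.

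The groups came from sample titles. Knockdown was compared with control by edgeR (4.0.16, run in R 4.3.3 with limma 3.58.1) and its quasi-likelihood test, with TMM scaling, filterByExpr (13846 of 13853 genes kept), robust dispersion and Benjamini-Hochberg adjustment at 0.05. SE is the log2 fold change divided by the square root of F. No replicate block was used. Ratios used counts plus 0.5 and an exact permutation test. The code was tested on simulated data. The alternatives were DESeq2 1.42.0, other scalings and filters, a replicate block, leaving out each library and, for ratios, 5 added counts. Counting error is small at this depth, and the spread between libraries (biological coefficient of variation 7.58%) sets the precision.

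The members and lists were chosen with earlier results of these data known. Genes named were YEATS4, the 10 members, their related genes, up to 2 rises and 2 falls of smallest p per list, cell type markers, overlapping genes, and the 5 genes nearest the members' median profile. Others are identified where they appear. Overlaps between genes were read from RefSeq (GRCh38.p14), whose build differs from hg19, so no coordinates of genes are given. Some results are not reported here.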

Additional observations from a re-analysis of the deposited data

How the results depend on the processing

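The count of the 10 members called ranged from 7 to 9 with DESeq2, other scalings and filters, and from 6 to 8 when 1 library was left out. TLN1, VCL, ACTN1, FLNA, PTK2 and ILK passed under all 12 alternatives, PXN under none, PARVA under 9, TNS3 under 6 and ZYX under 4. No member changed sign under these alternatives. Of all genes, 8518 to 9377 were called when 1 library was left out and 9351 to 9473 under the other settings. Counts for the 6 related lists stayed within 1.5 times the values given, and the 13 ratios moved by less than the spread between replicates. Replicate numbers are shared between the groups, but the labels do not say that a number marks a shared day, and the main fit was not blocked. Deviations of same-numbered libraries from their group means had correlations of 0.45, 0.08 and 0.09 for replicates 1, 2 and 3. Across numbers the correlations lay between −0.31 and −0.25 where replicate 1 was involved, and were 0.27 for replicates 2 and 3. Deviations from a group mean cancel within the group, so these values partly follow from the others and add no separate evidence. By its value of 0.45, replicate 1 deviated alike in both groups, and whether this marks a shared batch was not tested. With a replicate block 9 members were called, TNS3 (adjusted p = 0.000981) and ZYX (0.000400) in addition, and 10394 genes in all. Depth did not limit the members: the least abundant by these counts, ILK, had 527 to 813 counts per library. Whether the overlap with TAF10 affected the counts of ILK was not tested.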

Other observations

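Other linkers, chosen after their values were seen, moved as strongly as the family members described above. Of the 3 kindlins, which activate integrins together with talin, 1 fell and 1 rose, and FERMT3 was not called (edgeR log2 fold change −0.19, adjusted p = 0.336). FERMT1, the epithelial kindlin, was at 41.8, 49.2 and 47.2 CPM in control and at 28.3, 30.0 and 29.1 CPM in knockdown libraries (edgeR log2 fold change −0.66, adjusted p = 1.18e-05). FERMT2, the more widely expressed one, was at 97.8, 103 and 111 CPM in control and at 147, 154 and 155 CPM in knockdown libraries (0.55, adjusted p = 9.19e-06). The groups of FERMT1 and FERMT2 did not overlap. PALLD, which encodes the actin scaffold palladin, fell from 32.8 ± 1.38 to 19.3 ± 0.271 CPM (mean ± SD, n = 3 each). SORBS3, which encodes the vinculin-binding protein vinexin, fell from 94.3 ± 4.06 to 60.2 ± 2.37 CPM (mean ± SD, n = 3 each). The authors' deposited table called SORBS3 (log2 fold change −0.31, its adjusted p = 0.0117). It did not call FERMT1 (−0.188, adjusted p = 0.158), FERMT2 (0.078, 0.985) or PALLD (−0.215, 0.194).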
